A study of Homo sapiens with 20 samples.

Results

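The 4 arrays described here follow messenger RNA in hypoxic U2OS cells after transcription was blocked. They are the 4 of 20 arrays whose treatment label is hypoxia, ordered by their sampling label, from DRB addition (0 hr) in steps of 1.5 hr to 4.5 hr. U2OS is an established human osteosarcoma cell line, and the cells had been held below 0.1% oxygen for 3 hr before DRB was given at 100 ug/ml. The conditions set beside hypoxia have the same 4 times and the same DRB dose: control cells, and cells given tunicamycin at 2.5 ug/ml for 3 hr, an inhibitor of N-linked glycosylation that leaves proteins misfolded in the endoplasmic reticulum (ER). Emetine-treated cells and cells depleted of UPF1 (shRent1 in the labels) entered the model only for its estimate of scatter. Each condition and time has 1 array. The labels do not say whether oxygen stayed low during DRB, nor that the arrays stem from independent cultures, so effects of a culture or of an array batch and those of the condition cannot be told apart.

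DRB inhibits CDK9, the kinase of P-TEFb that releases RNA polymerase II from its pause near the start of genes, so most new messenger RNA synthesis stops and existing transcripts decay. Short-lived transcripts typically carry AU-rich or other destabilizing elements and encode regulators such as immediate early transcription factors, feedback inhibitors and cytokines, while those of metabolic enzymes and structural proteins last for many hours. In hypoxia the transcription factor HIF-1 is stabilized, binds hypoxia response elements and induces genes of glucose uptake, glycolysis and oxygen sensing, and hypoxia also phosphorylates the translation factor eIF2.

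The measure throughout is the deposited signal on the log2 scale, 1 probe set per gene. The arrays had been normalized to each other, so a change is set against the typical transcript of that array: a fall means faster loss than most transcripts, and a rise can be slower loss as well as new RNA. Of 14478 genes tested, 8860 had a log2 signal of 7 or more in hypoxia at 0 hr and 8682 at 4.5 hr. Losses were read among the former and rises among the latter. A gene was counted as lost early when its signal at 1.5 hr lay 1 or more below that at 0 hr, and as lost late when it had fallen by less than 0.5 at 1.5 hr but by 1 or more at 4.5 hr. Early losses were divided by the change from 1.5 to 4.5 hr into those that went on (-0.5 or lower), stayed level, or rebounded (0.5 or higher). These classes describe single arrays and carry no test. An unusually low reading at 1.5 hr alone would give an early loss and a rebound together, and a high reading at 0 hr would give a loss. A low reading at 0 hr or a high one at 4.5 hr would give a rise. Just inside the level limit stood ZNF143-AS1 (7.03 at 0 hr, lost early), DTWD1 (7.04, lost late) and SFMBT2 (7.08 at 4.5 hr, risen), and just outside it ZNF627 (6.98), ATAD2B (6.97) and FRMD3 (6.95).

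The hypoxia arrays resembled each other, with Pearson correlations over probe sets of 0.966 to 0.995 and median signals of 38.7 to 40.1. Of 9 mesenchymal or osteosarcoma markers, 6 read 7 or more at 0 hr (COL1A1, COL5A2, VIM, RUNX2, SPARC and FN1). Only 7 of the 9 passed the filter for testing, and these ran from 5.55 to 13.87. Of 17 markers of other cell types 2 read 7 or more, EPCAM at 8.11 and SNAP25 at 7.06. The 3′ minus 5′ signal of the ACTB control probe sets, a measure of how far labelled RNA reached toward the 5′ end, was 2.04 ± 0.13 (SD, n = 4 arrays) in hypoxia, 0.55 ± 0.10 in control and 0.54 ± 0.11 in tunicamycin. Within hypoxia it was 1.97, 2.0 and 1.94 up to 3 hr and 2.23 at 4.5 hr, the array that enters every late loss, rise and rebound, and the same measure of GAPDH was also highest there (0.21). Its part in the differences between conditions and times was not tested.

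Within hypoxia, 142 of 8860 genes were lost early (1.6%) and 424 were lost late (4.79%). In RNA of whole cultures, fewer cells with a transcript and less of it per cell cannot be told apart. Of the early losses 81 went on falling (0.914%), 47 stayed level (0.53%) and 14 rebounded (0.158%). The median gene of the 8860 changed by 0.08, 0.06 and 0.05 at 1.5, 3 and 4.5 hr. The early losses had medians of -1.34, -2.03 and -2.16, and the late losses of -0.25, -0.91 and -1.31. In all, 787 genes lay 1 or more below 0 hr at 4.5 hr (8.88%), and 70 of 8682 genes had risen by 1 or more (0.806%).

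**Figure D1:**
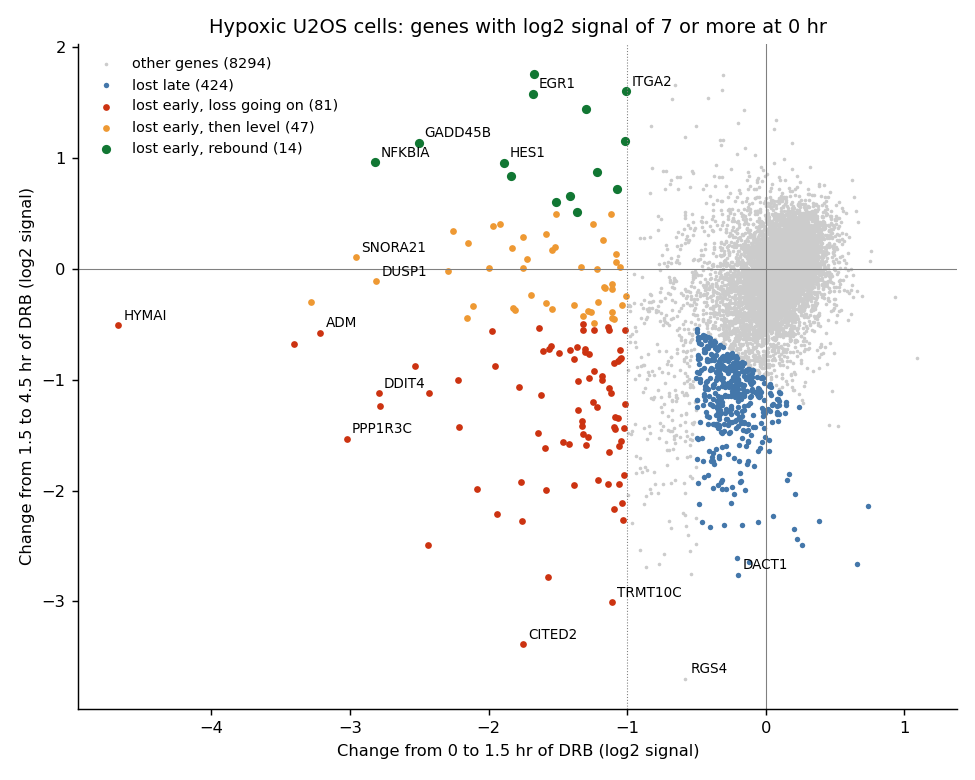
Change in log2 signal from 0 to 1.5 hr (x axis) against the change from 1.5 to 4.5 hr (y axis) in hypoxia, each point 1 of 8860 genes with a log2 signal of 7 or more at 0 hr. Colours mark the classes: 81 early losses that went on, 47 that stayed level, 14 that rebounded at the upper left, and 424 late losses below the centre.

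Fits with limma on all 20 arrays gave the error of these changes. In a straight line over time, 2049 of 14478 genes fell in hypoxia (14.2%) and 2222 rose (15.3%) at an adjusted p under 0.05. Among the 8860 brighter genes these were 1756 (19.8%) and 1580 (17.8%). With the arrays centred on ribosomal protein transcripts instead, 2701 genes fell and 1174 rose, and after quantile normalization 2077 fell and 2748 rose, so the balance of falls and rises depends on the scaling. Without the 0 hr array 1036 fell and 300 rose, and without the 4.5 hr array 932 and 578. A second fit separated the first interval (0 to 1.5 hr) from a late slope (1.5 to 4.5 hr). Its first-interval change runs from the 0 hr signal to the level of the late line at 1.5 hr. In this fit 144 genes fell in the first interval (0.995%) and 14 rose (0.0967%). In its late slope 957 fell (6.61%) and 217 rose (1.5%), but without the 1.5 hr array 0 late slopes passed in either direction, and without the 4.5 hr array 65 fell and 4 rose. The falls of the first interval numbered 30 without the 1.5 hr array and 81 without the 3 or the 4.5 hr array. Among the brighter genes 107 fell (1.21%) and 4 rose (0.0451%) in the first interval, and 859 fell (9.7%) and 121 rose (1.37%) in the late slope.

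The targets of HIF divided after DRB. Some of its signalling and regulatory targets, such as ADM, DDIT4 and CITED2, were strongly lost, while most glycolytic enzymes and glucose transporters were not counted as lost. Of 36 targets outside glycolysis with a signal of 7 or more, 10 were lost early against 1.6% of all genes. Of these 2 rebounded (0.158% of all), and 2 more of the 36 were lost late (4.79% of all). By the line test 12 of the 36 fell and 6 rose (19.8% and 17.8% of all brighter genes). At 4.5 hr 11 lay 1 or more below 0 hr (8.88% of all). The median change of the 36 at 1.5 hr was -0.32 against 0.08 for all genes. In the first interval 7 of them fell by limma (1.21% of all brighter genes). Of 24 glycolytic and glucose genes 2 were lost early (8.33% against 1.6% of all), PPP1R3C and PFKFB4, and none was lost late. The median change of the 24 at 1.5 hr was -0.08. At 4.5 hr the medians of both lists lay near 0 (0.02 and 0.06), and their sign turned with the arrays centred on ribosomal protein transcripts (-0.11 and -0.07). The glycolytic median also turned after quantile normalization (-0.02).

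Adrenomedullin (ADM), a secreted vasodilator peptide, read 12.06, 8.85, 7.80 and 8.28 from 0 to 4.5 hr. It stood high at 0 hr and low in the 3 later arrays, 10.8% of its 0 hr signal remaining at 1.5 hr. The fitted change of the first interval was -3.47 ± 0.38 (SE; limma adjusted p = 0.00344). In control cells ADM fell from 8.45 to 4.85 over the same interval, beginning lower than in hypoxia. It ended near 4.70, the value that a gene's mean over all arrays had to exceed for testing. At so low a signal the size of the control fall is uncertain. The difference between the first intervals was 0.03 ± 0.54 (limma adjusted p = 1) and cannot be read as equal loss.

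PPP1R3C, which targets protein phosphatase 1 to glycogen, read 10.41, 7.38, 6.14 and 5.85. Each array was lower than the one before, and 4.25% of the signal was left at 4.5 hr. Its first-interval change was -3.18 ± 0.25 (limma adjusted p = 0.000737), followed by a late slope of -0.51 ± 0.09 log2 per hr (adjusted p = 0.00752). In control cells it began at 6.45 and fell to 4.88 at 1.5 hr, a similarly low signal. The difference of the first intervals, -1.59 ± 0.35, did not pass (adjusted p = 0.852), though it did when the median probe set of each gene was used (-2.14, adjusted p = 0.02).

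DDIT4 (REDD1), the inhibitor of mTORC1 in hypoxia and energy stress, read 12.49, 9.70, 8.55 and 8.57. Most of the loss came before 3 hr, and the last pair of arrays were level. The first interval had a wide error (-2.99 ± 0.70, limma adjusted p = 0.106) and the line fell by 0.86 log2 per hr (adjusted p = 0.00436). CITED2, a competitor of HIF for the coactivators CBP and p300, read 10.19, 8.44, 5.49 and 5.05. Its loss was largest between 1.5 and 3 hr and left 2.83% at 4.5 hr, with a late slope of -1.13 ± 0.19 (adjusted p = 0.00816). NFIL3, a basic leucine zipper repressor of the circadian system, read 8.32, 7.01, 5.69 and 5.52, with a first-interval change of -1.51 ± 0.26 (adjusted p = 0.0324). The angiogenic factor VEGFA stayed at 10.95 and 10.78 before dropping to 9.78 and 9.66, a late loss with a slope of -0.37 ± 0.08 (adjusted p = 0.0197). A dimmer VEGFA probe set was higher by 1.0 at 4.5 hr than at 0 hr (6.43), so the probe sets of this gene disagree.

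The glucose transporter SLC2A1 read 10.22, 10.19, 10.80 and 10.98. It was level at 1.5 hr and higher in the later arrays, and rose by the line fit at 0.19 ± 0.04 log2 per hr (limma adjusted p = 0.00543). SLC2A3, the high-affinity neuronal-type transporter, read 12.15, 11.68, 11.76 and 11.77. PDK1, the kinase that shuts pyruvate out of the mitochondrion, read 10.42, 10.03, 9.93 and 9.90. Their slopes of -0.07 ± 0.06 and -0.11 ± 0.05 did not pass (adjusted p = 0.434 and 0.128). EGLN1, the main oxygen sensor of the HIF system, stayed within 11.05 and 11.18. BNIP3, a mitophagy receptor, read 11.97 at 0 hr and 11.76 at 4.5 hr, and NDRG1, a stress-induced growth regulator, 11.07 and 10.90. None of these 3 passed the line test.

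The regions upstream of a few of these genes are shown for the sequence elements named for the factors that induce them. Windows from 250 bases before to 50 after the RefSeq gene start were searched on both strands for the hypoxia response element cores ACGTG and GCGTG, the cyclic AMP response element TGACGTCA and the CArG box bound by serum response factor. PPP1R3C (GRCh38.p14, chr10:91633072-91633321, minus strand) and DDIT4 (chr10:72273674-72273923, plus strand) are printed because they are HIF targets with strong losses. Capitals mark ACGTG or GCGTG in either orientation. EGR1 (chr5:138465229-138465478, plus strand) is printed as the rebounding gene with CArG boxes, which the capitals mark. Each sequence holds the 250 bases that end at the base before the gene start, 5′ to 3′.
PPP1R3C: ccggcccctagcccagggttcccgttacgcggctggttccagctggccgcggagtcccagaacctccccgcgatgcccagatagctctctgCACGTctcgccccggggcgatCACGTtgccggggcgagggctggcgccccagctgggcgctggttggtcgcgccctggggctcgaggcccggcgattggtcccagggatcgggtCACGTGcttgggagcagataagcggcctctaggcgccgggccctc
DDIT4: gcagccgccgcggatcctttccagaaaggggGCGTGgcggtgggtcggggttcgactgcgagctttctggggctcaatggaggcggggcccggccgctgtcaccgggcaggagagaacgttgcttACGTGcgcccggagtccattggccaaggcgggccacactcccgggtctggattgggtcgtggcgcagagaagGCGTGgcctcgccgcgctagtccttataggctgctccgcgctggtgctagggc
EGR1: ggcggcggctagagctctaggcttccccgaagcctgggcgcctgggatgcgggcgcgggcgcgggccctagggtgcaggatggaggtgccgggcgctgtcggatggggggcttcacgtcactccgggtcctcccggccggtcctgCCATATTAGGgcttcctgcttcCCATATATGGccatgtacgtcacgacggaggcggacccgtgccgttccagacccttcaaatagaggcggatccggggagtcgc
The PPP1R3C stretch has 4 matches of ACGTG, 2 of them the overlapping strands of a palindrome 45 to 40 bases before the start. DDIT4 has 3 matches in its stretch. ACGTG was present in 36% of the 111 early-lost genes with a window and in 25.6% of 11527 tested genes, and GCGTG in 55.9% and 48.6%. The CArG box was present in 1.8% and 1.08%, with EGR1 and RND3 the only early-lost genes that had it. TGACGTCA was present in 4.5% and 3.05%. These are counts of letters in 1 window per gene, not binding sites.

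Outside the HIF lists, the largest early falls included those of the single genes HYMAI, TAF1D, EIF3C and SNORA21. Translation factors as a list did not stand out, with 1 of 54 lost early (1.85% against 1.6% of all genes). HYMAI, an imprinted noncoding RNA, read 9.08, 4.41, 4.04 and 3.90, and 3.93% was left at 1.5 hr. It stood apart at 0 hr and was at the floor afterwards, with a first-interval change of -4.71 ± 0.19 (limma adjusted p = 9.94e-06). TAF1D, a subunit of the RNA polymerase I selectivity factor, fell by 3.40 to 5.40 at 1.5 hr (adjusted p = 0.000225). EIF3C, a subunit of translation initiation factor eIF3, went from 7.72 to 4.44 (adjusted p = 0.000111). SNORA21, a small nucleolar RNA that lies in a host gene, went from 7.60 to 4.64 (adjusted p = 7.49e-05). Signals this close to 4.70 make the size of these falls uncertain.

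Of 21 immediate early genes with a signal of 7 or more, 10 were lost early (47.6% against 1.6% of all genes), 4 of them rebounding. Late losses numbered 2 (9.52% against 4.79% of all). The median changes of the 21 were -0.97, -1.32 and -1.0 at 1.5, 3 and 4.5 hr. MYC, the growth-promoting transcription factor, read 11.77, 9.56, 8.19 and 8.13, lower in each array, with a first-interval change of -2.43 ± 0.34 (limma adjusted p = 0.0116) and a late slope of -0.48 ± 0.12 (adjusted p = 0.0385). JUN, the AP-1 subunit, read 11.23, 9.48, 9.37 and 9.76, a drop that missed the threshold (first interval adjusted p = 0.136). ATF3, a stress-induced repressor, read 9.39, 8.33, 6.90 and 7.49. IER3, a stress-induced survival gene, read 13.16, 11.19, 10.98 and 11.58, so its last array lay above the 3 hr array but well below 0 hr.

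Of 17 NF-κB feedback and cytokine genes 4 were lost early (23.5% against 1.6% of all genes), 2 of them rebounding, and 1 late (5.88% against 4.79%). TNFAIP3 (A20), the ubiquitin-editing inhibitor of NF-κB, read 9.93, 7.94, 7.64 and 7.94, a step down of -2.09 ± 0.20 (limma adjusted p = 0.00122) with no further fall. NFKBIZ, an atypical inhibitor of the same family, read 9.67, 7.41, 7.88 and 7.75. Of 12 MAPK feedback genes 2 were lost early and 2 late (16.7% each, against 1.6% and 4.79% of all genes). The medians of the 12 were -0.18, -0.70 and -1.03. DUSP1, the phosphatase that inactivates p38 and JNK, read 11.02, 8.21, 7.61 and 8.10 (first interval -2.99 ± 0.46, adjusted p = 0.0192). Its other probe sets were dim and did not show the fall. In the growth-arrest and TGF-β feedback list 10 of 15 genes lay 1 or more below 0 hr at 4.5 hr against 8.88% of all genes, with medians of -0.57, -1.35 and -1.51. BTG1, an antiproliferative partner of the CCR4-NOT deadenylase, fell through all 4 arrays (9.27, 8.18, 7.24 and 6.74; line -0.57 ± 0.05, adjusted p = 1.05e-05).

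The steepest continuous fall among all brighter genes that passed the line test was that of CITED2. After it came TRIB1, a pseudokinase scaffold, at 10.44, 8.0, 5.91 and 5.51. RGS4, a GTPase-activating protein of G protein signalling, read 10.07, 9.49, 7.17 and 5.80, with most of its loss after 1.5 hr and a late slope of -1.23 ± 0.09 (limma adjusted p = 0.000651). PLK2, a stress-induced Polo-like kinase, fell from 11.03 to 6.96, and TRMT10C, a subunit of mitochondrial RNase P, from 9.70 to 5.58. The splicing factor HNRNPA1 read 12.89, 11.28, 10.68 and 10.54. Dimmer HNRNPA1 probe sets went from 7.92 to 3.74 and from 9.58 to 5.20 by 1.5 hr and no lower after it, so the probe sets differ in course.

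**Figure D2:**
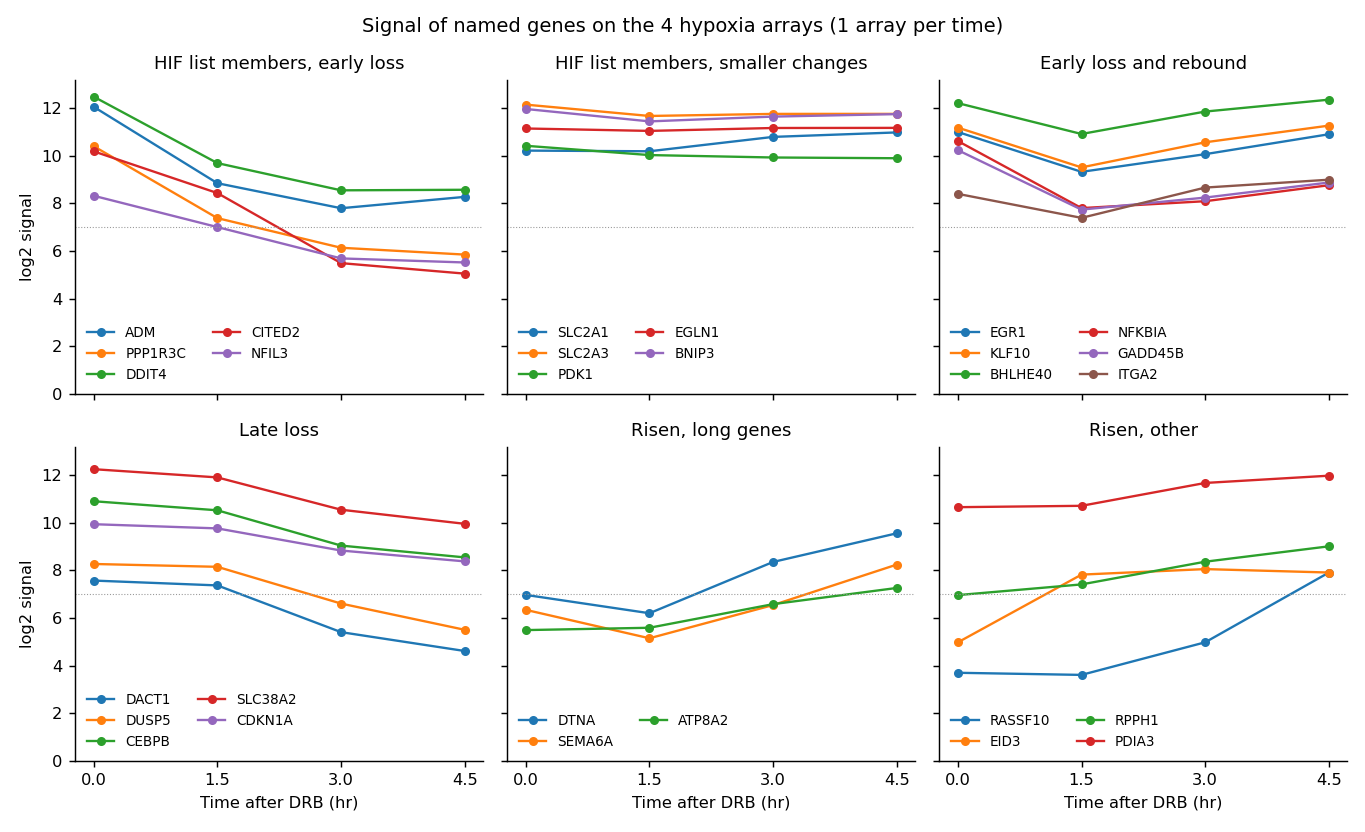
Log2 signal (y axis) against the time in DRB, in hr (x axis), in hypoxia, 1 array per point and no error bar, for genes of 6 kinds; the dotted line is the level of 7. ADM falls from 12.06 to 8.28 while SLC2A1 rises from 10.22 to 10.98, KLF10 dips from 11.19 to 9.51 and returns to 11.27, DUSP5 turns down only after 1.5 hr, and DTNA dips before it rises to 9.56.

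A set of 14 transcripts was lost early and then climbed while DRB was present: NFKBIA, GADD45B, HES1, IER2, EGR1, KLF10, KLF6, HCG4, STC1, BHLHE40, CCL20, PPP1R15A, NAV3 and ITGA2. Several are immediate early or stress-induced genes. In 13 of them, all but HES1, the signal rose in both intervals after 1.5 hr. All 14 were higher at 4.5 than at 3 hr, an interval in which 47.6% of the 8860 genes were higher and 46 of the other 128 early losses were. Only 4 of the 14 regained their 0 hr level (KLF10, BHLHE40, NAV3 and ITGA2). By limma 6 of 14 passed for a rising late slope, against 1.37% of brighter genes, and 6 for the first fall. The rule that chose them uses the same arrays, so these counts are no support for the class.

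KLF10, a TGF-β-induced zinc finger repressor, read 11.19, 9.51, 10.57 and 11.27. The 1.5 hr array was the low point and the 4.5 hr array the highest, a 3.38-fold recovery, with a late slope of 0.59 ± 0.13 log2 per hr (limma adjusted p = 0.0261). BHLHE40, a HIF-induced repressor of the clock, read 12.22, 10.92, 11.86 and 12.36, with a late slope of 0.48 ± 0.10 (adjusted p = 0.0194). ITGA2, the collagen-binding integrin subunit, read 8.40, 7.39, 8.67 and 9.0 and passed the 0 hr level by 3 hr (0.53 ± 0.09, adjusted p = 0.00776). Its other probe set of 7 or more dipped from 7.60 to 7.0 and ended at 7.90.

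EGR1, the serum response gene whose promoter is shown above, read 11.004, 9.33, 10.07 and 10.91. It returned to within 0.10 of its starting level, and its other probe sets dipped and recovered too (8.37, 6.99, 7.47 and 8.36 in one, 9.26, 8.0, 8.74 and 9.87 in the other). Its late slope of 0.53 ± 0.14 missed the threshold (limma adjusted p = 0.0555). NFKBIA, the inhibitor that retains NF-κB in the cytoplasm, read 10.62, 7.80, 8.09 and 8.77, a deep loss regained only to 27.6% of the 0 hr signal. GADD45B, a stress sensor upstream of p38, read 10.24, 7.74, 8.25 and 8.88 and regained 38.9%, with a late slope of 0.38 ± 0.10 (adjusted p = 0.0505). PPP1R15A (GADD34), which directs phosphatase to eIF2 and so ends the stress block of translation, read 7.19, 6.12, 6.38 and 6.84 (0.24 ± 0.06, adjusted p = 0.0491). The gene of NAV3, a microtubule-binding protein, spans 641 kb and that of ITGA2 105 kb, unlike most of the 14. A dimmer NAV3 probe set read 6.76 at 0 hr and 3.62 at 4.5 hr.

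FOS, the partner of JUN in AP-1, had the same shape below the level limit: 6.31, 4.11, 5.26 and 6.45. The 1.5 hr array was at the floor and the 4.5 hr array above the start, with a first-interval change of -2.20 ± 0.19 (limma adjusted p = 0.00103) and a late slope of 0.78 ± 0.07 (adjusted p = 0.000765). DDIT3 (CHOP), the stress-induced C/EBP partner, read 7.50, 6.78, 7.05 and 7.66, a shallower dip and recovery with a late slope of 0.30 ± 0.06 (adjusted p = 0.0129).

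The arrays of control and tunicamycin cells did not enter the rule. From 1.5 to 4.5 hr the median change of the 14 transcripts was 0.25 in control and -0.55 in tunicamycin. The value in hypoxia, 0.96, was set by the rule and is not to be compared with these. In control 12 of the 14 had a late slope above 0, against 3854 of all 8860 genes, and 5 were higher by 0.5 or more at 4.5 than at 1.5 hr, against 55 of 8860. In tunicamycin 0 of the 14 were higher by 0.5 or more, against 59 of 8860, and 8 were lower by as much, against 968. Part of the recovery was thus seen in control as well. EGR1 in control read 9.85, 7.54, 7.46 and 7.77 and in tunicamycin 12.53, 10.43, 8.59 and 8.77, so neither course showed the return to the starting level. BHLHE40 rose again in control too, from 8.53 at 1.5 hr to 10.03, with a late slope of 0.50 (limma adjusted p = 0.0126). GADD45B in tunicamycin read 10.68, 8.62, 6.73 and 6.14, a late slope of -0.83 (adjusted p = 0.00373).

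The tests of these differences passed for few genes. Against control, 0 of 14478 genes differed by limma in the first interval or the late slope in either direction (0%). At an unadjusted p under 0.05 the first interval was higher in hypoxia for 360 genes (2.49%) and lower for 324 (2.24%), and the late slope higher for 477 (3.29%) and lower for 218 (1.51%). Against tunicamycin the late slope was higher in hypoxia for 1 gene (0.00691%) and lower for 0 (0%), with 533 (3.68%) and 630 (4.35%) at an unadjusted p under 0.05. The gene was DDIT3: its tunicamycin course of 11.96, 11.66, 10.70 and 9.22 fell where the hypoxia course rose, a difference of 1.11 ± 0.08 log2 per hr (adjusted p = 0.00164). GADD45B (1.21 ± 0.14) and FOS (0.80 ± 0.10) came next to the threshold, each at an adjusted p of 0.0518, and EGR1 differed by 1.08 ± 0.20 (adjusted p = 0.154). From control, EGR1 differed by 0.45 ± 0.20 and GADD45B by 0.37 ± 0.14, both short of the threshold (adjusted p = 0.999 and 0.942). The rebound rule chose GADD45B and EGR1 by their rise in these hypoxia arrays. Their differences from tunicamycin and from control are therefore no support for the class. Both comparisons use the same 4 hypoxia arrays, and without the 1.5 hr or the 4.5 hr hypoxia array 0 genes had a higher late slope than in tunicamycin, DDIT3 included.

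**Figure D3:**
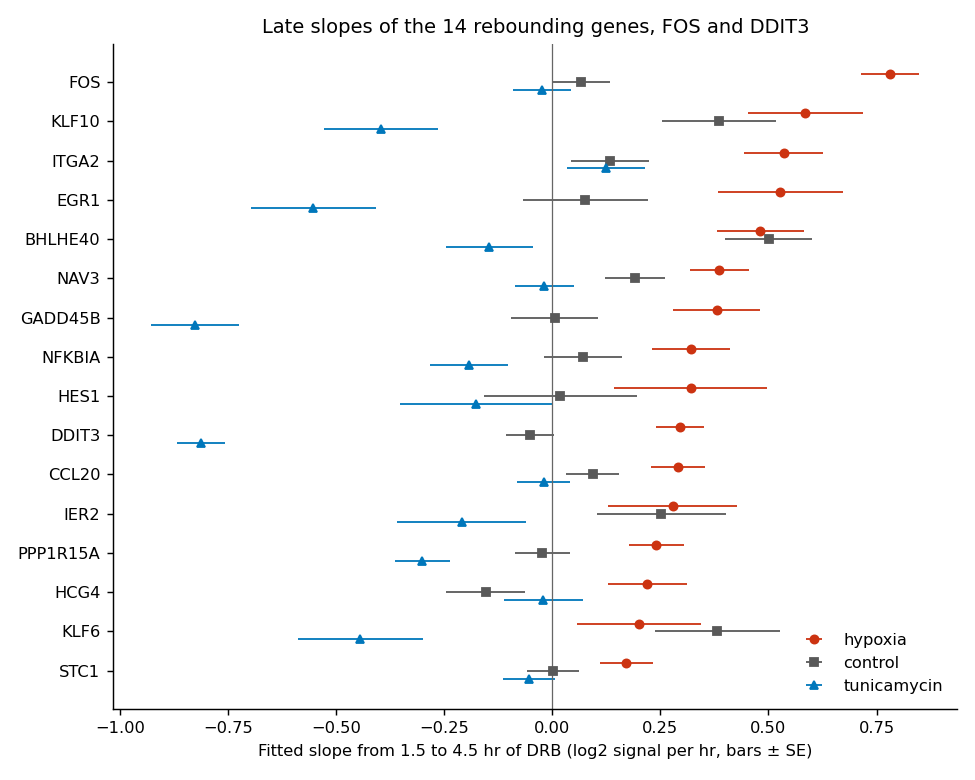
Late slope from 1.5 to 4.5 hr (log2 per hr, with standard error bars from limma's fit) in hypoxia, control and tunicamycin for the 14 rebounding genes and for FOS and DDIT3. In hypoxia all slopes lie above 0, which for the 14 was set by the rule that chose them and is not to be compared with the other conditions. In tunicamycin GADD45B, EGR1 and DDIT3 lie far to the negative side.

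Most of the early losses of hypoxia were also seen in the control arrays. Of the 142, 113 lay 1 or more below 0 hr at 1.5 hr in control (244 of all 8860) and 74 in tunicamycin (164 of all 8860). At 4.5 hr these counts were 122 and 119 (1049 and 671 of all). By the same rule applied to each condition's own arrays, control had 256 early losses with 8 rebounds and tunicamycin 171 with 2. Of the 8 rebounds of control, 7 were early losses in hypoxia and 4 were rebounds there (4 of the 14 of hypoxia). Of the 2 of tunicamycin, 1 was an early loss in hypoxia and 0 were rebounds.

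Late losses, the larger class, held most of their signal at 1.5 hr and lost it by 4.5 hr. DACT1, an inhibitor of Wnt signalling, read 7.58, 7.37, 5.41 and 4.62, with a late slope of -0.92 ± 0.14 (limma adjusted p = 0.00577). DUSP5, the nuclear phosphatase of ERK, read 8.27, 8.15, 6.61 and 5.51, lower by 0.12 at 1.5 hr and by 2.76 at 4.5 hr (-0.88 ± 0.07, adjusted p = 0.000685). CEBPB, a basic leucine zipper factor of stress and differentiation, read 10.91, 10.53, 9.05 and 8.55. In each of these courses the arrays divide between 1.5 and 3 hr.

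The amino acid transporter SLC38A2, an ATF4 target, read 12.26, 11.91, 10.55 and 9.96, and 20.4% was left at 4.5 hr (late slope -0.65 ± 0.08, limma adjusted p = 0.00221). CDKN1A (p21), the p53-induced inhibitor of cyclin-dependent kinases, read 9.95, 9.77, 8.84 and 8.38 (-0.46 ± 0.05, adjusted p = 0.00221). SKIL (SnoN), a repressor of SMAD signalling, was above its start at 1.5 hr and fell afterwards, with 9.87, 10.09, 8.26 and 7.66, though the median of its probe sets did not fall by the line. NFE2L2 (NRF2), the master factor of the antioxidant response, fell to 40% of its 0 hr signal at 4.5 hr, with readings of 10.82, 10.60, 9.92 and 9.50. DNAJB1, a heat shock co-chaperone, fell from 8.39 to 6.31 and HERPUD1, a component of ER-associated degradation, from 10.22 to 9.09, while its other probe set read 4.87 and 4.97. Of the 424 late losses, 381 lay 1 or more below 0 hr at 4.5 hr in control (1049 of all 8860). In tunicamycin 166 did (671 of all 8860). The medians of the 424 at 4.5 hr were -1.61 in control and -0.77 in tunicamycin. The median in hypoxia, -1.31, was set by the rule and is not to be compared with these.

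Among zinc finger genes the share that was lost lay above that of all genes. Of 171 genes named ZNF with a signal of 7 or more, 60 were lost by 4.5 hr (35.1% against 8.88%). Early losses numbered 16 with no rebound (9.36% against 1.6%) and late losses 19 (11.1% against 4.79%). The median changes of the 171 were -0.19, -0.46 and -0.60. By the line test 89 fell and 6 rose (19.8% and 17.8% of all brighter genes), and the late slope fell for 45 and rose for none. ZNF217, a transcriptional repressor, read 9.01, 7.06, 6.08 and 6.19, with most of the loss by 1.5 hr. ZNF7 read 9.51, 8.18, 7.12 and 6.77, lower in each array (line -0.62 ± 0.07, limma adjusted p = 4.97e-05).

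Some genes of ribosome assembly and cell division fell by the line test, and few rose. Of 40 ribosome biogenesis genes, 19 fell and 1 rose, where 19.8% of all brighter genes fell and 17.8% rose. In this list 1 gene was lost early and 5 late (2.5% and 12.5%, against 1.6% and 4.79% of all genes). The median change of the list at 4.5 hr was -0.33. MPHOSPH10, a part of the U3 snoRNP, read 9.54, 9.04, 7.59 and 6.56 (line -0.69 ± 0.08, limma adjusted p = 6.71e-05), and RRS1, needed for large subunit assembly, fell from 10.76 to 8.59. Of 37 mitotic genes 18 fell and none rose. WEE1, the kinase that restrains CDK1, was the early loss among them (9.99, 8.53, 7.01 and 6.97), and AURKA, the spindle pole kinase, a late one (10.41, 10.16, 9.25 and 9.11). Of 46 replication and G1/S genes 16 fell and 4 rose, with 6 late losses that included CDC25A, the phosphatase activating CDK2 (9.08, 8.79, 7.68 and 7.43). Of 31 splicing regulators 12 fell and none rose, and of 20 p53 targets 11 fell and none rose. Of 28 RNA polymerase II and P-TEFb genes 9 fell and 5 rose, and their median change at 4.5 hr was -0.12. Late losses numbered 3 in this list (10.7% against 4.79% of all genes). CCNT1 and CCNT2, the cyclins of P-TEFb, were late losses, from 9.78 to 8.49 and from 8.15 to 6.63.

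The transcripts proposed as targets of nonsense-mediated decay followed different courses. Of 12 with a signal of 7 or more, 4 were lost early (1.6% of all genes), of which GADD45B and PPP1R15A rebounded. GADD45A, a DNA damage-induced growth arrest gene, read 11.82, 10.44, 9.88 and 10.12 (first interval -1.51 ± 0.21, limma adjusted p = 0.0111). ATF4, the central factor of the integrated stress response, stayed between 12.73 and 12.92. The helicase of this decay pathway, UPF1, stayed between 8.28 and 8.53. Of 38 integrated stress response genes 2 were lost early and 3 late (5.26% and 7.89%, against 1.6% and 4.79% of all genes). By the line test 7 fell and 3 rose, a share of falls near the 19.8% of all brighter genes.

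**Figure D4:**
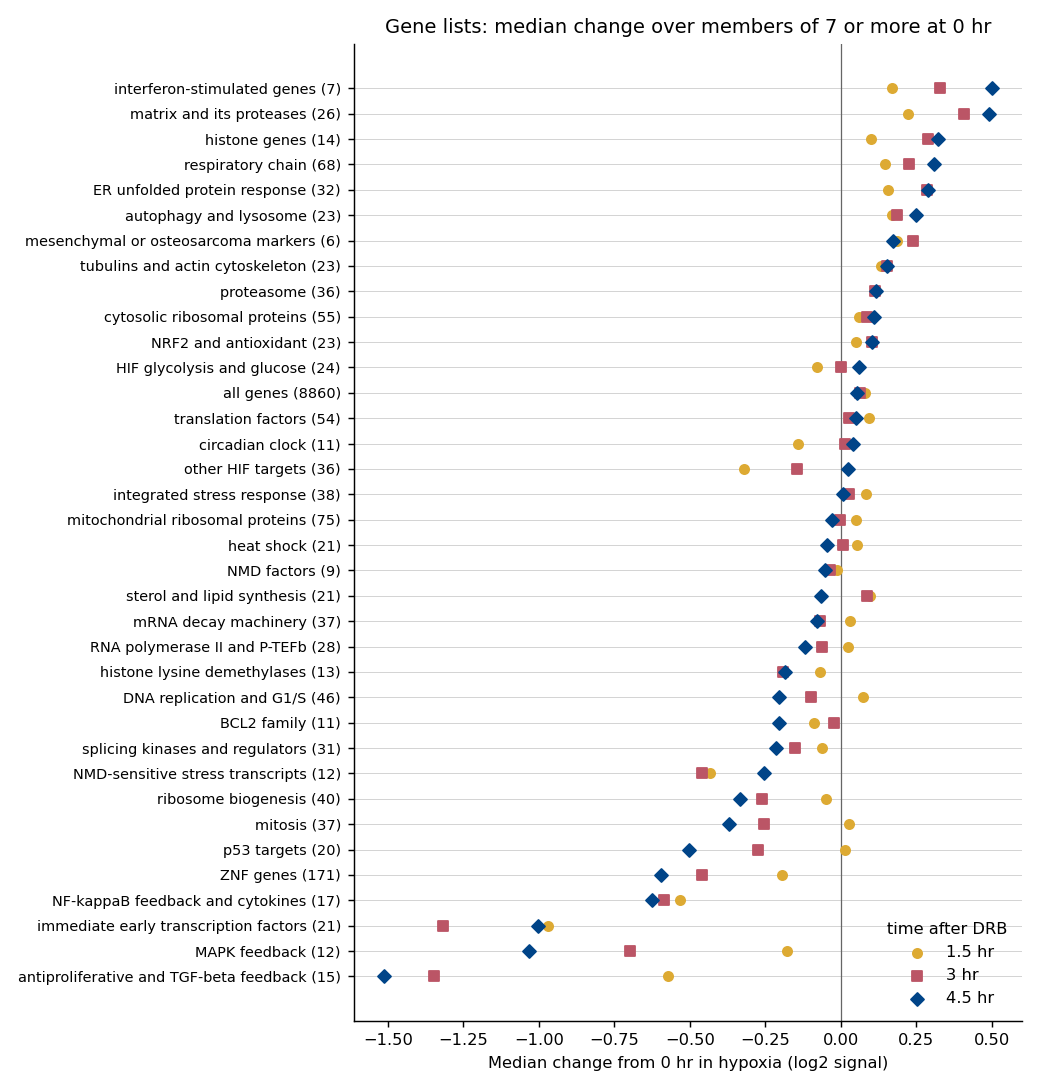
Median change in log2 signal against 0 hr at 1.5, 3 and 4.5 hr of DRB in hypoxia for gene lists with at least 6 members of 7 or more at 0 hr, with all genes for reference. The growth-arrest and TGF-β feedback, MAPK feedback and immediate early lists lie lowest at 4.5 hr (-1.51, -1.03 and -1.0), and the matrix list is above 0 at every time (0.22, 0.41 and 0.49).

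Many, but not all, genes of mitochondrial respiration and of the extracellular matrix rose relative to the array. Of 68 respiratory chain genes 35 rose by the line test and none fell, where 17.8% of all brighter genes rose and 19.8% fell. None was lost, and the medians were 0.15, 0.22 and 0.31. NDUFA7, a complex I subunit, read 9.78, 10.04, 10.26 and 10.53 (0.16 ± 0.02 log2 per hr, limma adjusted p = 0.000187). Of 26 matrix genes and proteases 15 rose and none fell. COL6A2, a chain of collagen VI, read 7.52, 8.08, 8.38 and 8.60, and MMP2, a gelatinase, 8.60, 9.06, 9.33 and 9.44. Centred on ribosomal protein transcripts, 19 respiratory chain genes rose and 1 fell, and 11 matrix genes rose and none fell. Under that scaling 846 of all 8860 brighter genes rose and 2302 fell. The directions of both lists held with fewer calls. The cytosolic ribosomal proteins themselves changed by a median of 0.11 at 4.5 hr, with 2 of 55 rising. That centring lowers every 4.5 hr signal by 0.13 relative to 0 hr. Actin (ACTB) read 14.40 at 0 hr and 14.36 at 4.5 hr.

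ER chaperones were mixed, while more autophagy and lysosome genes rose than fell. Of 32 ER unfolded protein response genes 11 rose and 4 fell by the line test, against the same 17.8% and 19.8%. PDIA3, a disulfide isomerase of the ER, read 10.66, 10.72, 11.68 and 11.99 (0.33 ± 0.05 log2 per hr, limma adjusted p = 0.00054), and its other probe sets were higher at 4.5 hr by 0.90 and 1.04. DNAJB9, a BiP co-chaperone, and XBP1, the factor activated by IRE1, went the other way, from 7.85 to 4.95 and from 8.02 to 5.55. Of 23 autophagy and lysosome genes 9 rose and 1 fell, among them the lysosomal hexosaminidase HEXA (9.80, 10.21, 10.52 and 10.69; the median of its probe sets had a falling line).

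The 70 genes that had risen by 1 or more at 4.5 hr were of several kinds. Only 35 of them had a signal of 7 or more at 0 hr, and the others met that level at 4.5 hr alone. RASSF10, a Ras-association domain protein, read 3.70, 3.61, 4.98 and 7.91, at the floor until 1.5 hr. EID3, a component of the SMC5/6 complex, jumped in the first interval and then stayed, with 4.98, 7.83, 8.06 and 7.91 (2.91 ± 0.24, limma adjusted p = 0.000954). RPPH1, the RNA of nuclear RNase P and a product of RNA polymerase III, read 6.97, 7.42, 8.37 and 9.02, higher in each array (0.47 ± 0.05 log2 per hr, adjusted p = 4.72e-05). RPPH1 rose in control as well, from 7.19 to 9.04, and EID3 from 4.41 to 6.81.

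Of these 70, 15 first dipped below their 0 hr signal at 1.5 hr. DTNA, a dystrophin-associated protein, read 6.97, 6.20, 8.36 and 9.56, with a late slope of 1.12 ± 0.09 (limma adjusted p = 0.000685). Of its other probe sets, one near the same 0 hr level stayed flat (6.97 and 6.95), and 3 dimmer ones were higher at 4.5 hr by 0.96 to 1.54. SEMA6A, a transmembrane axon guidance protein, read 6.35, 5.15, 6.55 and 8.25 (1.03 ± 0.15, adjusted p = 0.00407), and in control it had the same dip and rise (6.34, 4.87, 7.59 and 8.11). The lipid flippase ATP8A2 rose without a dip, from 5.49 to 7.27. Of the 70 genes, 46 were higher by 0.5 or more at 4.5 hr in control (984 of all 8682) and 24 in tunicamycin (994 of all 8682), with medians of 0.69 and 0.39.

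The classes differed in the length of their genes, a property the rule did not use. The genomic span in RefSeq (GRCh38.p14) had a median of 30.6 kb over the genes of 7 or more at 0 hr, with 20.2% under 10 kb. Early losses had a median of 12.8 kb with 45.8% under 10 kb, and the rebounding genes of 4.16 kb, 11 of 14 under 10 kb. Late losses lay between at 21.4 kb. Among the rebounding genes 2 exceeded 100 kb, NAV3 and ITGA2 (14.3%, against 17.6% of the genes of 7 or more at 0 hr). The risen genes had a median of 102 kb, and 35 of 70 spanned more than 100 kb (50%), against 18.7% of all genes of 7 or more at 4.5 hr. Among the 15 that dipped first the median was 344 kb and 13 exceeded 100 kb. DTNA spans 399 kb, SETBP1 388 kb and THRB 379 kb. RASSF10, EID3 and RPPH1 are short exceptions at 2.8, 1.47 and 0.341 kb.

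**Figure D5:**
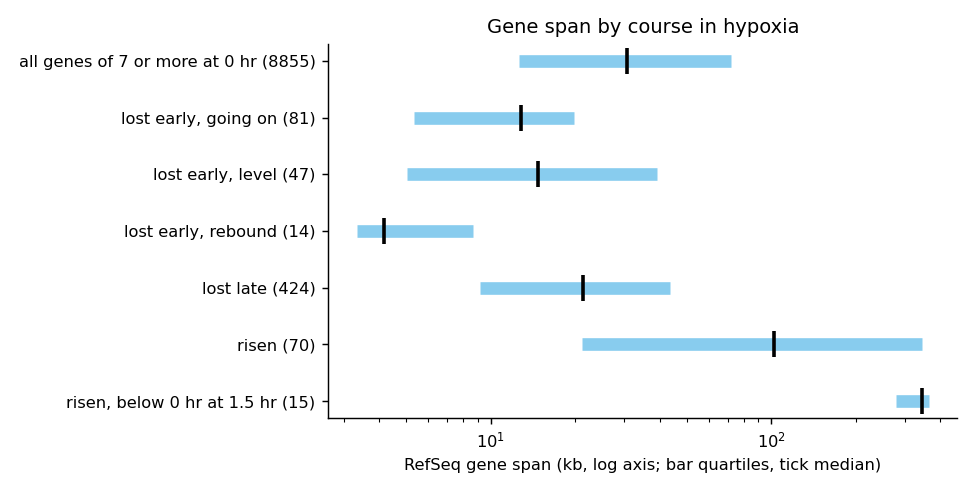
RefSeq gene span in kb (x axis, log scale) for the classes of the hypoxia course; bars run from the lower to the upper quartile and ticks mark the median. Rebounding genes have the shortest median (4.16 kb) and risen genes that dipped at 1.5 hr the longest (344 kb), beside 30.6 kb for all genes of 7 or more at 0 hr.

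For early losses and risen genes the same pattern of length appeared where each condition's own arrays chose the genes. In control the early losses had a median span of 13 kb and the 39 risen genes of 93.2 kb, 12 of which had risen in hypoxia too. In tunicamycin these medians were 16.9 kb and 74.6 kb, the latter over 31 genes of which 5 had risen in hypoxia. The rebounds had a median of 5.19 kb over 8 genes in control, but of 208 kb over 2 genes in tunicamycin.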

How the data were processed

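Labelled RNA of U2OS cells was read on Affymetrix 3′ arrays, per the labels. The values deposited are 1 linear intensity for each of 54675 probe sets on 20 arrays, which the authors made with RMA, per the submitters' processing notes; the version is not given in the sources used here. Intensities were taken to log2. The 41091 probe sets with 1 gene symbol covered 19775 genes; 1801 had several symbols and 11777 none. Each gene was read from its probe set with the highest mean, and 14478 genes whose mean exceeded the 40th percentile (log2 4.70) were tested. A suffix of _s_at or _x_at marks probe sets that can detect further transcripts.

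limma 3.58.1 (R 4.3.3) was fitted to all 20 arrays: a line per condition (10 coefficients, 10 residual degrees of freedom), and a 0 hr level, a 1.5 hr level and a late slope per condition (15 and 5). P-values were adjusted by Benjamini-Hochberg over all genes tested, at 0.05; they reflect how far single arrays lie from the fitted courses, a spread that may be technical. The fits were tested on simulated data. Lists were described by counts and medians. Gene spans and promoter windows came from RefSeq tables. The genes, lists and comparisons were chosen with earlier results of these data known. Genes were named by a rule (the extremes of each class and slope, up to 4 members of each list, and a fixed set), and others, such as those beside a limit, after their values were seen. Alternatives varied the probe set, filter, scaling, thresholds, moderation and arrays used. The number of arrays limits the precision.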

Additional observations from a re-analysis of the deposited data

Results flagged for a closer look

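DDIT3 was the gene whose late slope differed between hypoxia and tunicamycin by a test of the difference itself. The slope from 1.5 to 4.5 hr was 0.30 log2 per hr in hypoxia and -0.81 in tunicamycin, a difference of 1.11 ± 0.08 (SE; limma adjusted p = 0.00164). Both courses rest on 1 array per time, and DDIT3 began at 7.50 in hypoxia and 11.96 in tunicamycin. Without the 1.5 hr or the 4.5 hr hypoxia array 0 genes passed this test, so the DDIT3 call was lost in both cases.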

How the results depend on the processing

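Each array is the sole one of its time, so leaving out an array removes a time. No paired analysis was possible because the replicate numbers are only the accession order of the times and pair no samples.

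Without 1 hypoxia array, line slopes fell for 932 to 1881 genes and rose for 300 to 2046, first intervals fell for 30 to 81 and rose for 1 to 5, and late slopes fell for 0 to 957 and rose for 0 to 217. The first interval cannot be fitted without the 0 hr array. The lowest counts of late slopes came without the 1.5 hr array, and without the 4.5 hr array 65 fell and 4 rose. Without 1 hypoxia or control array, differences from control in the first interval and the late slope numbered 0 higher and 0 lower. Late slopes against tunicamycin were higher for 0 to 3 genes and lower for 0.

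With arrays centred on ribosomal protein transcripts, 1174 line slopes rose and 40 genes were counted as risen. After quantile normalization 379 late slopes rose and 120 genes were risen. With the median of a gene's probe sets, 237 first intervals fell and 30 rose, 142 late slopes rose, 2 first intervals were lower than in control (PPP1R3C and DEPP1), and late slopes against tunicamycin were higher for 6 genes and lower for 2. Without _s_at and _x_at probe sets 24 first intervals rose, and 2 late slopes were higher than in tunicamycin (DDIT3 and FOS). With trended, robust moderation 397 late slopes rose, 3 were higher than in control (FOS, DTNA and GJC1), and against tunicamycin 28 were higher and 44 lower. Above the 60th percentile the latter were 7 and 2, and with no filter 3 were higher (DDIT3, GADD45B and FOS). A threshold of 1.5 in place of 1 left 59 early losses, 7 rebounds, 146 late losses and 9 risen genes, and a level of 8 left 45 risen genes. The other counts under these settings stayed within 1.5 times those reported. The causes were not tested.

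Signs turned for a few named genes. With the median of the probe sets, line slopes became 0.0428 for ZBED5, 0.0198 for SKIL, 0.009 for INSIG1, 0.0178 for ZNF503, -0.077 for HEXA and -0.0471 for SNAP25. Late slopes became 0.0431 for ZBED5, 0.1412 for HNRNPA1 and 0.0054 for INSIG1, and the first interval of DUSP1 became 0.2259. Without _s_at and _x_at probe sets, line slopes became 0.0428 for ZBED5, 0.0204 for TGIF1 and 0.0212 for HERPUD1, and late slopes 0.0431, 0.1412 for HNRNPA1 and 0.1009 for HERPUD1. With 1 hypoxia array left out the line of TNFAIP3 ran from -0.7635 to 0.0015 (without 0 hr) and the late slope of MAP3K14 from -0.572 to 0.0278 (without 1.5 hr). Of 187 named genes, 147 passed the line test, and 41 of these lost the call under another processing and 76 without 1 hypoxia array. For the first interval these numbers were 28, 8 and 15, and for the late slope 95, 47 and 95. Signals near log2 4.70 limit what the later arrays can show of a deep loss.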

Other observations

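In the first interval 14 genes rose in hypoxia by limma, named here after their values were seen where not given above. After EID3 the largest was RPA4, a paralog of a replication protein A subunit, at 7.25, 8.35, 8.16 and 7.55, up at 1.5 hr and nearly back by 4.5 hr (1.16 ± 0.15, adjusted p = 0.00745). TXNDC16, an ER thioredoxin-like protein, rose from 6.89 to 7.90 and stayed up (1.08 ± 0.18, adjusted p = 0.0253). KCNA1, a voltage-gated potassium channel, read 7.40, 8.33, 8.19 and 8.08 (0.93 ± 0.13, adjusted p = 0.0116). AKT2, a kinase of insulin signalling, read 7.59, 8.35, 8.41 and 8.51 (0.76 ± 0.14, adjusted p = 0.0459).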
